A study of Mus musculus with 43 samples.

Results

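Plasminogen activation was followed through 5 genes, taken by symbol: the activators Plat and Plau, the receptor Plaur, and the protease inhibitors Serpine2 and Serpinb1a. All 5 were found among the 23951 genes of the RNA expression tables and among the 54307 gene rows of the single-cell matrices. The genes were chosen by name, with no measured value in the rule, but with earlier results of these data known. The study measured primary intestinal organoids of wild-type C57BL/6 mice by bulk RNA-seq, with 3 libraries in each of 6 groups. Organoids received no irradiation or 4 Gy on day 4, and vehicle or 2 ng/mL TGFB1, a cytokine, from day 6 for 24 h. Non-irradiated organoids were collected on day 7 (D7 non-IR), and irradiated organoids on day 7 (D7 IR) or day 11 (D11 IR). Single-cell libraries covered irradiated organoids at day 8 (D8) after vehicle (0 h) or 6, 15 and 24 h of 1 ng/mL TGFB1, with 1 library each. Further libraries held Ki67-RFP+ cells sorted from proximal small intestinal crypts of mice with the Mki67tm1.1Cle/J reporter allele: 1 from a non-irradiated littermate and 2 taken 56 h after 12 Gy to the whole body. The sort keeps only cells with the reporter of a cell cycle gene, so cells without it are not covered. Whether replicates were separate cultures or animals is not stated in the labels, so p-values measure the spread between these libraries, which may be technical.

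Plasminogen is a circulating zymogen that 2 proteases cut to active plasmin. Plat encodes tissue-type activator, best known for dissolving fibrin, and Plau encodes urokinase, which works at the cell surface when bound by the GPI-anchored receptor that Plaur encodes. Plasmin degrades fibrin and other matrix proteins and activates metalloproteinases, and urokinase and its receptor are known from epithelia that migrate over wounds. Serpine2 encodes protease nexin 1, a serpin that blocks thrombin, urokinase and plasmin. Serpinb1a encodes an intracellular clade B serpin best known as an inhibitor of neutrophil elastase, so its link to plasminogen is the loosest of the 5.

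RefSeq promoter windows (GRCm38.p6) were matched for 2 of the 5 genes. The 250 bases before the annotated start are shown for Plaur, the gene that TGFB1 raised in all 3 conditions from a level well above the filter, and for Serpine2, which stayed under 1 FPKM. Capitals mark matches on either strand to the AP-1 motif TGANTCA and the Sp1 motif GGGCGG, which may overlap each other and themselves. The windows lie at chr7:24462233-24462482 on the plus strand and chr1:79858666-79858915 on the minus strand.
Plaur: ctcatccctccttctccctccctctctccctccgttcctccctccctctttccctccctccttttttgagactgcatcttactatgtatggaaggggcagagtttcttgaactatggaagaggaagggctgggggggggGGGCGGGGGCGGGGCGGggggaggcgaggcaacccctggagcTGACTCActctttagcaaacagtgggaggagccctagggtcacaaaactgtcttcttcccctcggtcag
Serpine2: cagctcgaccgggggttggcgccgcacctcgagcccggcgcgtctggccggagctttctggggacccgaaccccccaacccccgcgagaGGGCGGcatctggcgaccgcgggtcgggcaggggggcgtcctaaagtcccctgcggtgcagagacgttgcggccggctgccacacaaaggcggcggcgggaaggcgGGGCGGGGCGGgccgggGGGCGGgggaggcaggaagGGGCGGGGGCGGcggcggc
The Plaur window held 1 AP-1 match, TGACTCA, 69 to 63 bases before the start, and 3 Sp1 matches. The Serpine2 window held 6 Sp1 matches and 0 AP-1 matches. Over the same 250 bases, 6.75% of all 32851 promoters in the table held the AP-1 motif and 32.7% the Sp1 motif, each searched on both strands. The TATA box letters TATAAA, present in 12.4% of promoters, were in neither window. The TEAD motif, searched as GGAATG and present in 12.6%, was in neither window. The SMAD motif, searched as CAGAC and present in 42.2% of promoters, had 1 match for Serpine2 and 0 for Plaur. GC content was 59.6% for Plaur and 78.8% for Serpine2, against a median of 52.4% over all promoters. These matches describe the letters of the windows only.

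RNA levels below are in FPKM, which is scaled by gene length, so levels of different genes can be set side by side. The 18 RNA libraries summed to between 447728 and 621996 FPKM, with 11040 to 11361 genes above 1 FPKM, and their read depth is unknown. Serpinb1a was the most abundant of the 5 in every vehicle group, at 110.2 to 118 FPKM on average, followed by Plaur at 19 to 31.4 and Plat at 8.51 to 15.4. Plau and Serpine2 lay under 1 FPKM in every vehicle library, and their vehicle libraries overlapped at D7 non-IR. In D11 IR organoids that had received TGFB1 the order at the top was turned, with Plaur at 118 ± 8.77 FPKM (SD, n = 3) above Serpinb1a at 64.5 ± 7.88 FPKM. Changes are given as differences of log2(FPKM + 1) from limma with standard errors, tested over every gene averaging 1 FPKM or more, a level that Serpine2 did not reach. In bulk RNA, fewer cells of a type and less RNA per cell cannot be told apart.

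TGFB1 raised all 4 tested genes at D7, with and without irradiation. Plau and Plaur changed most, and at D11, 4 days after the end of treatment, both were still higher while Serpinb1a had turned to lower than vehicle. Counts of 4 of 4 higher at D7 non-IR and at D7 IR stand beside backgrounds of 33.3% of 11330 and 35.8% of 11258 genes called higher. At D11 IR, 2 of 4 were higher and 1 lower, where 32.3% and 31.6% of 11479 genes were called so. With so many genes called, the counts alone say little about these 4, and the sizes are given gene by gene. Plau, under 1 FPKM with vehicle, is counted only through its TGFB1 libraries, so its count as higher is no support.

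**Figure D1:**
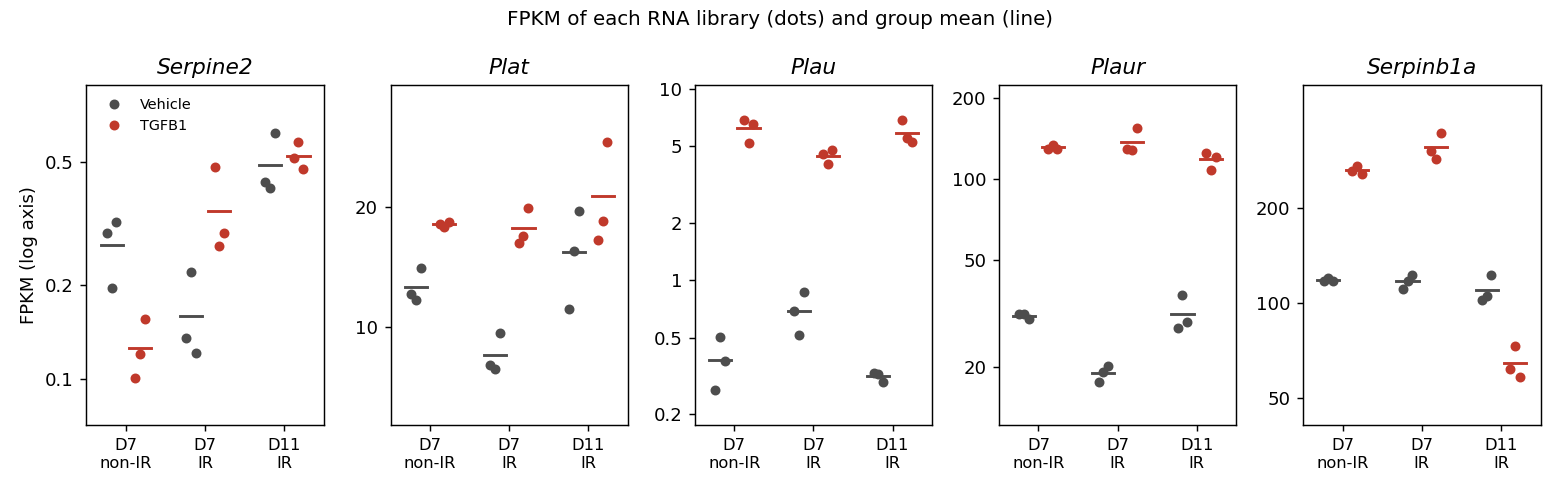
FPKM of the 5 genes in each of the 18 RNA libraries, on a log axis that differs between panels. Dots are libraries, lines are means of 3 libraries, grey is vehicle and red is TGFB1. Plaur and Plau are higher in every TGFB1 library than in any vehicle library of the same condition, and Serpinb1a is higher at D7 and lower at D11.

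Plat, the tissue-type activator, measured 12.1, 11.7 and 14 FPKM in the D7 non-IR vehicle libraries and 18.1, 17.8 and 18.3 FPKM with TGFB1. At D7 IR the values were 8.02, 7.85 and 9.65 FPKM with vehicle and 16.2, 16.9 and 19.9 FPKM with TGFB1. The vehicle and TGFB1 groups did not overlap in either condition. Mean levels were 18.1 and 17.7 FPKM with TGFB1 and 12.6 and 8.51 FPKM with vehicle, without and with irradiation. The conditions were normalized separately, and their levels were compared without a test. The log2 change was 0.49 ± 0.0615 (SE, limma adjusted p = 3.52e-05, 1.43-fold in means) without and 0.97 ± 0.0901 (adjusted p = 4.33e-06, 2.08-fold) with irradiation. At D11 IR, Plat measured 11.1, 15.5 and 19.5 FPKM with vehicle and 16.5, 18.4 and 29.1 FPKM with TGFB1, and the groups overlapped. The D11 difference of 0.44 did not pass (95% interval -0.23 to 1.11, limma adjusted p = 0.207), and a 2-fold change lies inside the interval. Over the alternatives it lay between 0.2 and 0.62.

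Plau, the urokinase gene, was near the lower end of measurement with vehicle: 0.267, 0.505 and 0.379 FPKM at D7 non-IR, 0.693, 0.518 and 0.869 FPKM at D7 IR, and 0.328, 0.324 and 0.293 FPKM at D11 IR. With TGFB1 it measured 6.83, 5.2 and 6.54 FPKM, then 4.57, 4.03 and 4.76 FPKM, then 6.83, 5.49 and 5.25 FPKM in the same order of conditions. Every TGFB1 library was several times above every vehicle library. The log2 changes were 2.37 ± 0.104 (limma adjusted p = 7.37e-09), 1.69 ± 0.0983 (7.47e-08) and 2.38 ± 0.114 (2.12e-07), and the ratios of mean FPKM were 16.1, 6.42 and 18.6. Plau passed the filter only through its TGFB1 libraries, so its being among the tested genes is itself no support.

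Plaur, the urokinase receptor gene, measured 31.4, 31.4 and 30.3 FPKM with vehicle and 129.5, 134 and 129 FPKM with TGFB1 at D7 non-IR. At D7 IR the vehicle libraries were at 17.6, 19.2 and 20.2 FPKM and the TGFB1 libraries at 129, 128 and 154 FPKM. At D11 IR they were at 27.9, 37 and 29.3 FPKM and at 125, 108 and 121 FPKM. The TGFB1 libraries of all 3 conditions fell between 108 and 154 FPKM, and no group overlapped its vehicle group. The log2 changes were 2.04 ± 0.0336 (limma adjusted p = 8.01e-12, 4.21-fold), 2.78 ± 0.0755 (1.52e-09, 7.22-fold) and 1.89 ± 0.11 (5.94e-07, 3.76-fold).

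Serpine2, the protease nexin gene, stayed under 1 FPKM in all 18 libraries, the highest being 0.62. At D7 non-IR it measured 0.294, 0.196 and 0.321 FPKM with vehicle and 0.101, 0.12 and 0.156 FPKM with TGFB1, while at D7 IR it measured 0.136, 0.221 and 0.121 FPKM with vehicle and 0.481, 0.268 and 0.294 FPKM with TGFB1. The groups did not overlap in either condition, with TGFB1 lower in the first and higher in the second. At D11 IR vehicle libraries held 0.429, 0.411 and 0.62 FPKM and TGFB1 libraries 0.513, 0.58 and 0.474 FPKM, which overlapped. With the filter removed, limma gave log2 changes of -0.17 (adjusted p = 0.0142), 0.22 (0.0308) and 0.04 (0.715) in these conditions, and a difference between the D7 conditions of 0.39 (0.00407). These changes are fractions of 1 FPKM.

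Serpinb1a, the intracellular serpin gene, measured 117, 120.4 and 117 FPKM with vehicle and 261, 271 and 257 FPKM with TGFB1 at D7 non-IR. At D7 IR it measured 111, 117 and 123 FPKM with vehicle and 302, 286 and 345 FPKM with TGFB1. The log2 changes were 1.14 ± 0.0318 (limma adjusted p = 2.41e-10, 2.22-fold) and 1.4 ± 0.0672 (4.76e-08, 2.66-fold). At D11 IR vehicle libraries held 102, 105 and 123 FPKM and TGFB1 libraries 62, 73.3 and 58.2 FPKM. The groups did not overlap, and Serpinb1a fell by 0.77 ± 0.107 on the log2 scale (adjusted p = 0.000175). Its clade B relatives Serpinb1b and Serpinb1c averaged at most 0.101 and 0.124 FPKM in any group, and the sources used here do not say how any reads shared between the 3 were counted.

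**Figure D2:**
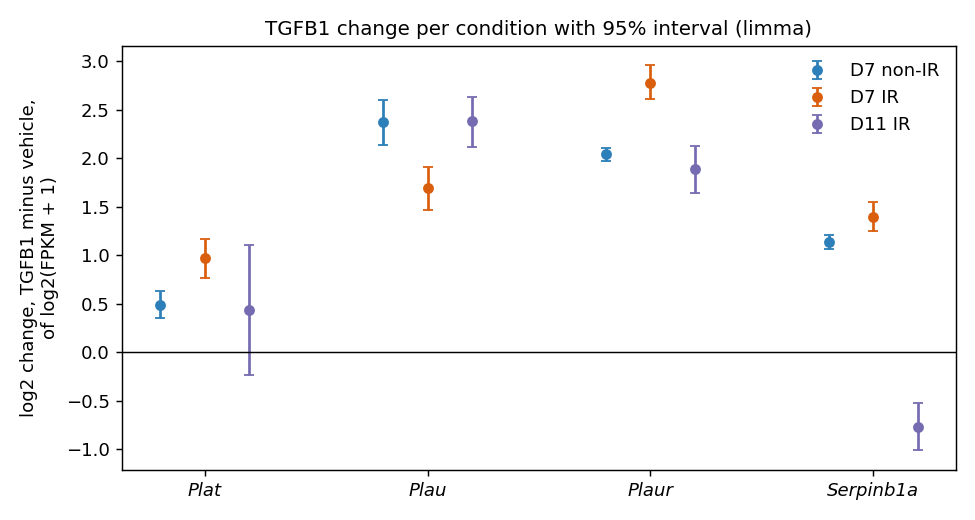
Change with TGFB1 in log2(FPKM + 1) for the 4 tested genes, with 95% intervals from limma (n = 3 libraries per group). Plaur, Plau and Serpinb1a lie off 0 in all 3 conditions, Serpinb1a on the other side of 0 at D11, and the D11 interval of Plat spans 0.

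The size of the TGFB1 change differed between irradiated and non-irradiated D7 organoids for all 4 tested genes (limma interaction). It was larger with irradiation for Plaur by 0.74 ± 0.0885 (adjusted p = 7.98e-06), Plat by 0.48 ± 0.12 (0.00371) and Serpinb1a by 0.26 ± 0.08 (0.0144), and smaller for Plau, at -0.68 ± 0.149 (0.0014). The background was 25.3% of 11411 genes called higher and 27.8% called lower. For Plat and Plaur the vehicle levels did not overlap between the D7 conditions while the TGFB1 levels did. These levels were normalized separately and compared without a test. Over all genes, 85% of 11235 did not overlap with vehicle and 84.1% of 11403 with TGFB1. The calls of Plat and Serpinb1a were lost when all 18 libraries were fitted together (adjusted p = 0.17 and 0.0901), and that of Serpinb1a with quantile normalization (0.0715).

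Between D11 and D7 in irradiated organoids, the change of Serpinb1a differed by -2.17 ± 0.138 (limma adjusted p = 1.71e-08), from a rise to a fall. The change of Plaur was smaller at D11 by -0.90 ± 0.145 (adjusted p = 0.0001), and that of Plau larger by 0.69 ± 0.15 (0.00118). These are 1 gene called higher and 2 lower, beside 31.5% and 33% of 11456 genes. The difference for Plat, -0.53 ± 0.315, did not pass (adjusted p = 0.161), but passed without vehicle replicate 1 (-0.74, 0.0416) or without TGFB1 replicate 3 of D11 (-0.77, 0.0169).

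Vehicle levels of the conditions lie in tables normalized separately and were compared without a test. At D7, irradiated organoids held less Plat (8.51 ± 0.992 against 12.6 ± 1.25 FPKM, SD, n = 3 each) and less Plaur (19 ± 1.29 against 31 ± 0.627 FPKM) than non-irradiated ones, and more Plau (0.693 ± 0.175 against 0.384 ± 0.119 FPKM). These 3 of 5 genes did not overlap, where 85% of 11235 genes did not. Serpinb1a (117 ± 5.89 and 118 ± 1.79 FPKM) and Serpine2 overlapped. From D7 to D11 in irradiated vehicle organoids Plat was 1.81-fold, Plaur 1.65-fold and Serpine2 3.06-fold higher and Plau 2.2-fold lower, 4 of 5 not overlapping against 66.9% of 11264 genes. In this comparison too Serpinb1a overlapped.

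The other genes of plasminogen activation and pericellular proteolysis were followed as a list of 52, of which 27, 29 and 30 passed the filter at D7 non-IR, D7 IR and D11 IR. TGFB1 raised 18 of 27, 21 of 29 and 18 of 30, and lowered 4, 3 and 10, where 33.3%, 35.8% and 32.3% of all tested genes were raised and 34.9%, 39.7% and 31.6% lowered. With vehicle, Fn1 was under 1 FPKM at D7 IR and D11 and Serpinb6b at D11, so they passed the filter only through the TGFB1 libraries. Without them 20 of 28 and 16 of 28 were raised at D7 IR and D11. The median log2 changes were 0.30, 0.87 and 0.46, against -0.02, -0.03 and 0.01 over all genes tested. Plg, the plasminogen gene itself, was at or below 0.0261 FPKM in every library.

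Among the plasminogen receptors and cofactors, 5 of 8 tested genes rose at D7 in each condition (33.3% and 35.8% of all genes), and at D11 3 rose and 4 fell (32.3% and 31.6% of all genes). Anxa2, whose annexin binds plasminogen and tissue-type activator at the cell surface, rose from 828 ± 3.46 to 3287 ± 87.6 FPKM at D7 non-IR (log2 change 1.99, limma adjusted p = 3.41e-12). At D7 IR Anxa2 rose by 2.00 (1.7e-10) and at D11 by 1.20 (5.15e-05). Itgav, the alpha-v integrin subunit, rose by 2.09 (1.86e-10), 1.94 (1.94e-09) and 1.53 (2.26e-06). Itgb5, a beta subunit that pairs with it, rose by 2.07 at D7 IR (1.57e-09) and fell by 0.41 at D11 (0.00535). Plgrkt, a plasminogen receptor of the cell membrane, was at 297 ± 45.3 FPKM with vehicle and 46.7 ± 7.98 FPKM with TGFB1 at D11 and fell by 2.65 on the log2 scale (3.98e-07). Lrp1, which clears activator and inhibitor complexes from the cell surface, fell by 1.31 at D11 (2.3e-05).

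Of the 10 listed inhibitors 3, 4 and 4 were tested in the same order of conditions, and 3, 2 and 1 rose while 0, 1 and 2 fell. Serpinb5, a clade B serpin also called maspin, rose by 2.98 (limma adjusted p = 7.46e-12), 3.23 (3.27e-10) and 2.7 (6.79e-08). Of 8 clade B serpins listed apart from the inhibitors, Serpinb5 included, 4 were tested in each condition. At D7 non-IR 1 of 4 rose and 1 fell, and 4 of 4 rose at D7 IR and at D11. Of all genes 33.3% and 34.9%, 35.8% and 32.3% did so. Serpinb2, Serpinb6a and Serpinb8 are clade B serpins too, but are listed among the inhibitors and not counted here. Serpinb9b rose by 2.69 (3.56e-05) and Serpinb6b by 2.15 (4.06e-06) at D11. Among substrates and metalloproteinases, 4 of 5, 6 of 7 and 6 of 7 rose. Beside these counts and those of the inhibitors, 33.3%, 35.8% and 32.3% of all genes rose. Fn1 at D7 IR and D11, and Serpinb6b among the clade B serpins at D11, are counted only through their TGFB1 libraries. Fn1, the fibronectin gene, went from 0.299 ± 0.136 to 38 ± 11.7 FPKM at D11 and was tested only because of its TGFB1 level (4.87, 3.14e-07), after a rise of 2.66 (1.34e-09) at D7 IR, and Mmp7, an epithelial metalloproteinase, from 50.3 ± 6.06 to 222 ± 24.4 FPKM (2.12, 3.26e-07). Mmp15, a membrane-bound metalloproteinase, rose by 1.27 (5.26e-10) at D7 non-IR and 2.02 (1.96e-10) at D7 IR. Of the metalloproteinase inhibitors, Timp3 rose by 2.19 (6.06e-10) and 2.48 (8.43e-09) in the same conditions, and Timp2 by 2.55 (2.36e-07) at D11.

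Plau, Plaur and Serpine2 are also made by leukocytes, fibroblasts and endothelium, so markers of those cells were read in the same libraries. The 6 immune markers summed to 9 to 11.7 FPKM at D11 with TGFB1 against 0.227 to 0.378 with vehicle, of which Laptm5 alone made 8.42 to 11.4 FPKM, while Ptprc, the pan-leukocyte marker, was at most 0.0726 FPKM in any library. At D7 the sum was 2.09 to 2.8 FPKM with TGFB1 and 0.6 to 0.885 with vehicle in irradiated organoids, and at most 1 FPKM in non-irradiated ones. Of the 5 myeloid markers measured, Mpo was at 0 in every library. Their sum was 9.85 to 11.4 FPKM with TGFB1 against 3.14 to 4.35 with vehicle at D7 IR, where Lyz2 made 8.48 to 9.27 FPKM, and 4.75 to 8.69 against 2.28 to 4.29 at D11. The 6 mesenchymal markers summed to 3.04 to 4.76 FPKM with TGFB1 against 0.374 to 0.577 with vehicle at D7 IR, of which Acta2 made 2.56 to 4.14 FPKM, and to 1.18 to 2.03 against 0.0937 to 0.293 at D11, with Dcn at most 0.0192 FPKM. The 5 endothelial markers reached 0.308 FPKM. In non-irradiated organoids the mesenchymal sum was 0.31 to 0.586 FPKM with TGFB1 against 0.0796 to 0.169 with vehicle and the myeloid sum 1 to 1.27 against 0.678 to 0.984. Mesenchymal and myeloid sums thus moved with TGFB1 in all 3 conditions and immune sums in irradiated organoids, and their part in the results was not tested.

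Over the 18 libraries, the 3 genes most like Plaur by Pearson's r of log2(FPKM + 1) were Capn2 (0.993), Samd4 (0.987) and Ajuba (0.981). Those most like Plau were Amotl1 (0.988), Anxa6 (0.988) and Prss22 (0.985), those most like Serpinb1a were AI747448 (0.982), Prdx5 (0.967) and Gpx1 (0.965), and those most like Plat were Syt8 (0.941), Hspa1a (0.924) and Tnfrsf10b (0.892). For Serpine2 the closest were Slc35g2 (0.866), Vnn1 (0.855) and Sun2 (0.852). The libraries form 6 groups, so these values mostly describe likeness of group means. Capn2 followed Plaur from 15.6 to 99 FPKM at D7 non-IR, from 8.88 to 97.4 at D7 IR and from 13.5 to 66.4 at D11. AI747448 followed Serpinb1a, with 70.3 to 185, 93.4 to 287 and 64.2 to 31.8 FPKM in the same order.

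In the single-cell libraries, levels are counts of unique molecular identifiers (UMIs) scaled to an equal total for each library (CPM), with exact 95% Poisson intervals that cover counting error only. With 1 library per time there is no test. After the filters 2218 to 4283 organoid cells per library remained, with medians of 6709 to 10441 UMIs per cell, and 699 to 1846 crypt cells, with medians of 11968 to 14399 UMIs. Of 21 pairs of libraries, 2 shared 1 cell barcode each and the others none.

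Plaur was measured at 7.39 CPM (6.40 to 8.48) at 0 h, 6.85 (5.97 to 7.81) at 6 h, 12.4 (11 to 13.8) at 15 h and 26.5 (24.7 to 28.4) at 24 h. It was level over the first 6 h and higher at 15 and again at 24 h. The 24 h library held 3.58 times (3.07 to 4.20) the CPM of the 0 h library, and 5.41% of the 8883 genes with at least 10 CPM in either library were at least 2-fold higher. Plaur was under 10 CPM at 0 h and enters that set only through its 24 h level. Its being counted is itself no support. In cells thinned to 2000 UMIs, the share with a Plaur UMI was 1.4% (1.01 to 1.89, Clopper-Pearson) at 0 h and 3.79% (3.03 to 4.67) at 24 h, and without thinning it was 5.05% and 15.6%. Other measures moved over the same times. From 0 h to 24 h the median mitochondrial share went from 2.95% to 4.85%, mesenchymal markers from 0.888 to 3.5 CPM, and cluster 10 of the organoid cells, led by small RNA genes, from 1.23% to 17.9% of cells. Without that cluster Plaur was at 7.44 CPM (6.44 to 8.53) at 0 h and 26.9 (25 to 28.9) at 24 h. The part of the other measures was not tested.

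Plau gave 5, 3.5, 5 and 35.5 UMIs in all, that is 0.183, 0.108, 0.19 and 1.16 CPM at 0, 6, 15 and 24 h. Only the 24 h library stood apart, at 6.34 times the 0 h level (2.51 to 21). Serpinb1a was at 298 CPM (291 to 304) at 0 h, 332 (326 to 338) at 6 h, 439 (431 to 447) at 15 h and 418 (411 to 425) at 24 h, so its highest level came at 15 h. Plat was at 7.09 (6.13 to 8.17), 5.09 (4.34 to 5.93), 5.89 (5 to 6.9) and 8.2 CPM (7.21 to 9.28), with the 24 h level at 1.16 times that of 0 h (0.954 to 1.4). One cell of the 24 h library held 42 of its 251 Plat UMIs, and without it the level was 6.83 CPM (5.94 to 7.83). Serpine2 was at 0.158 to 0.504 CPM from at most 16.3 UMIs per library, and no order of times can be read from it.

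**Figure D3:**
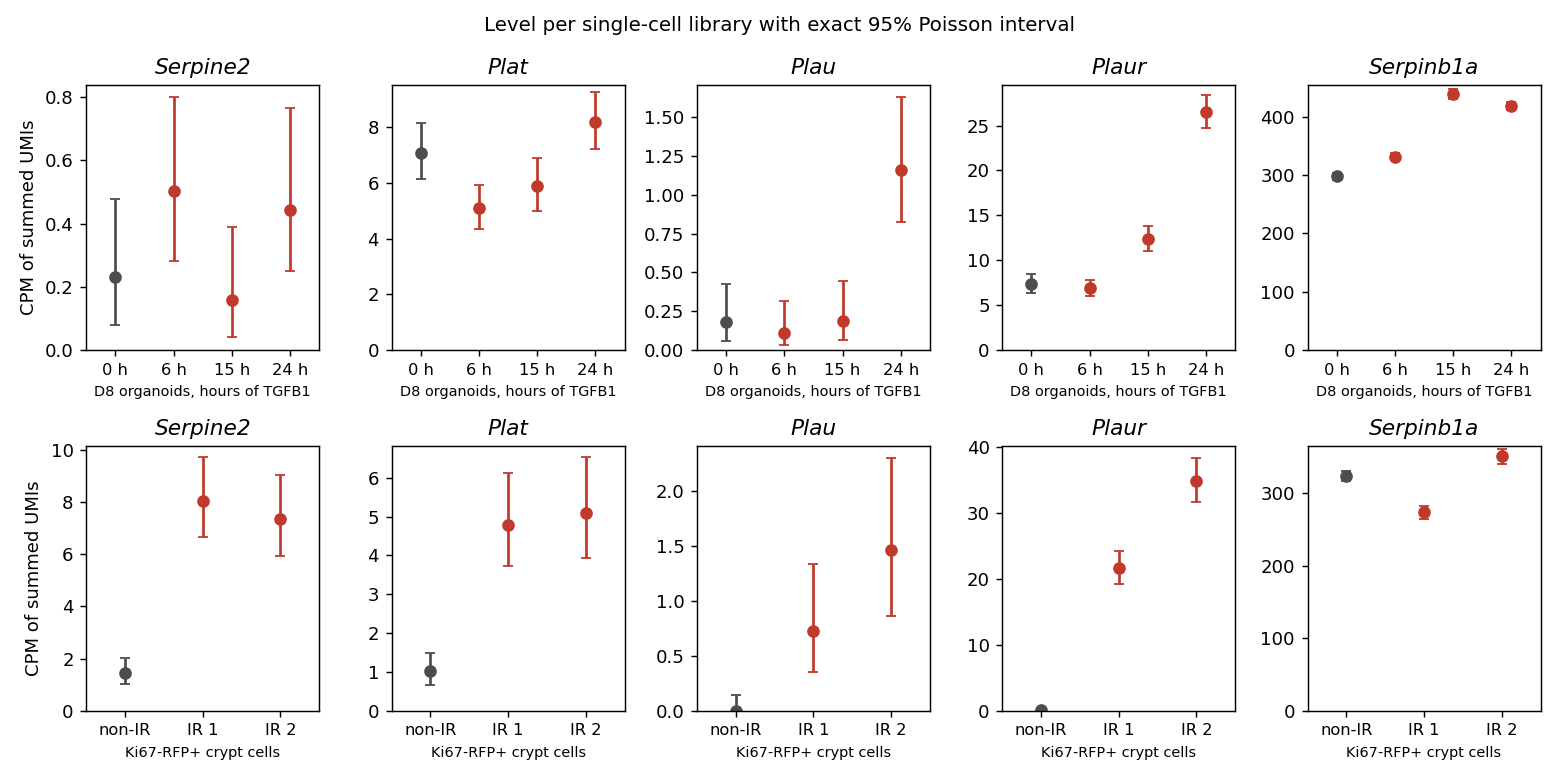
CPM of summed UMIs for the 5 genes in each single-cell library, on linear axes from 0 that differ between panels, with exact 95% Poisson intervals. Above are D8 irradiated organoids by hours of TGFB1, below Ki67-RFP+ crypt cells. Plaur stands higher at 15 and 24 h, and Plaur, Plat and Serpine2 stand higher in both irradiated crypt libraries.

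Cells were clustered without these 5 genes among the variable genes, and cluster names are rebuilt from markers. Organoid cluster 13, regenerative-like by markers that include Anxa1, Ly6d and Il1rn and led by the hormone gene Pyy, held 2.99% of the organoid cells and 38.9% of the Plaur UMIs, at 97.6 CPM (90 to 106). Its share of cells was 0.0682%, 0.56%, 4.67% and 9.38% at 0, 6, 15 and 24 h, and it held 54.8% of the Plaur UMIs at 24 h. Cells with a Plaur UMI made up 53.9% of it at a median of 13884 UMIs per cell, against 1.1% of enterocyte-like cluster 6 at a median of 8017. Of the 908 cells of cluster 6, 855 are from 0 h, so time and cluster differ together. In unnamed cluster 11 the share was 19.4% at a median of 7562. Outside cluster 13, 8 clusters had at least 30 cells at both 0 h and 24 h. Plaur had the higher value at 24 h in 8 of 8, but clusters 9, 10 and 14 held 0 Plaur UMIs at 0 h and could not fall. The clusters share 1 library per time and are not replicates. In 2 the intervals did not overlap: 14.6 (11.2 to 18.7) against 5.2 CPM (2.24 to 10.2) in stem-like cluster 2, and 26.4 (19.9 to 34.3) against 10.5 (7.68 to 14) in S phase-like cluster 5. In cluster 11 the values were nearly equal, at 38.1 (28.2 to 50.1) against 37.2 CPM (26.6 to 50.4). Mitotic-like cluster 7, too small at 24 h, held 14.9 (9.99 to 21.4) at 0 h, 9.06 (6.7 to 12) at 6 h and 4.99 CPM (2.01 to 10.3) at 15 h. Cluster 13 also held 42.9% of the few Plau UMIs.

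Plat and Serpinb1a were highest elsewhere. Cluster 11, which carries no name and whose leading genes are Ada, Pnliprp2, Clca4a and Sprr1a, held 49% of the Plat UMIs at 76.6 CPM (69 to 84.8) in 4.09% of the cells. Serpinb1a reached 1317 CPM (1285 to 1350) there, against 832 (809 to 855) in cluster 13 and 116 in stem-like cluster 2. Plat in cluster 11 was at 109.6 CPM (90.9 to 131), 81.7 (66.9 to 98.7), 77.1 (62 to 94.8) and 43.4 (32.8 to 56.2) at 0, 6, 15 and 24 h, while its level in cluster 13 was 17 (11.4 to 24.2) at 15 h and 29.5 (24.6 to 35.3) at 24 h. By these values the near-equal Plat level of the whole 0 h and 24 h libraries was made up differently, with 62.4% of Plat UMIs in cluster 11 at 0 h and, at 24 h, 22.7% there and 49% in cluster 13. The cell with 42 Plat UMIs lies in cluster 13, and without it the 24 h shares were 27.3% and 38.8% and the level in cluster 13 was 19.7 CPM (15.6 to 24.4).

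**Figure D4:**
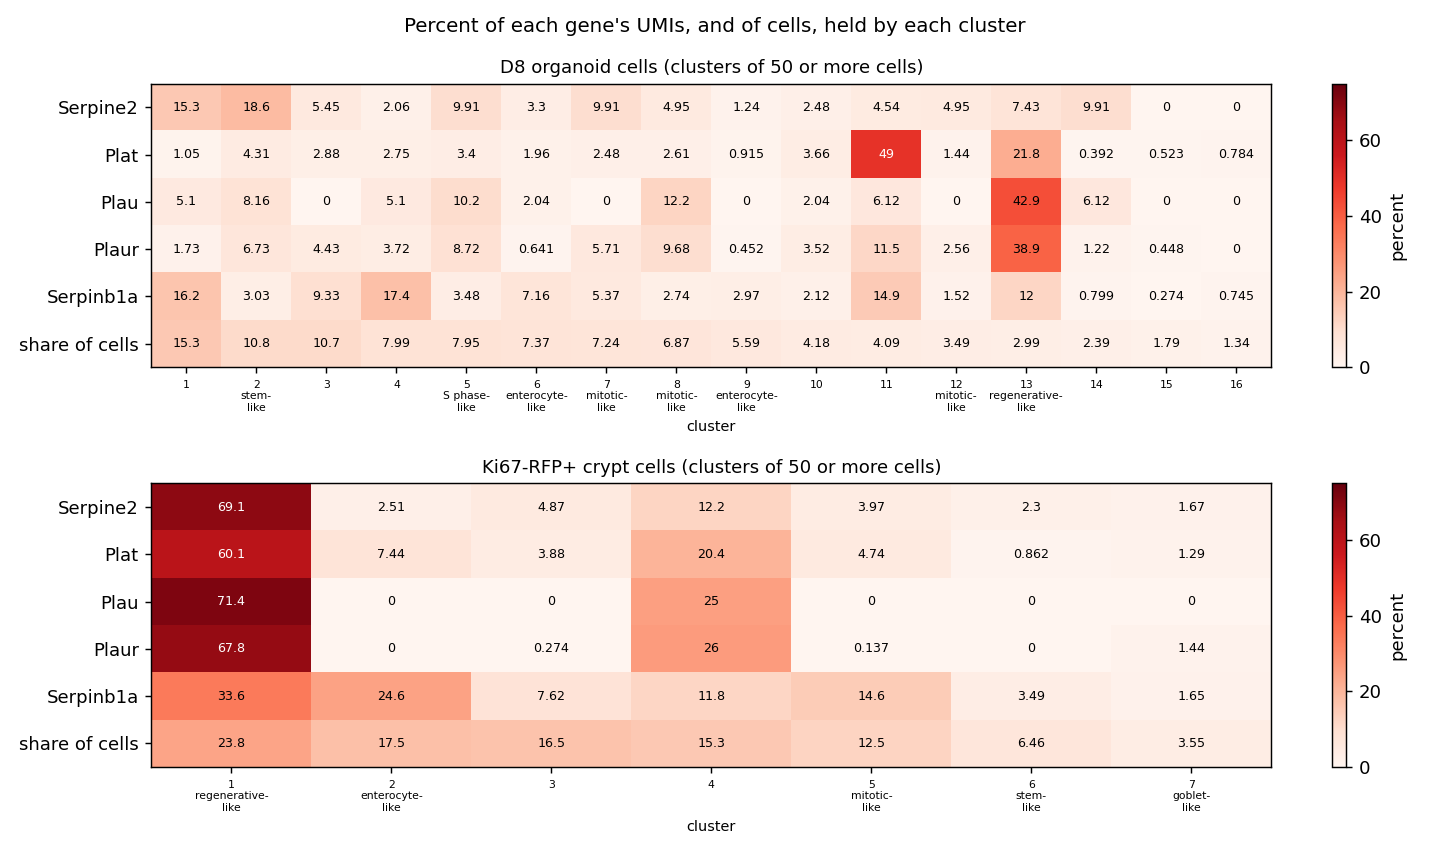
Percent of each gene's UMIs held by each cluster of 50 or more cells, with the share of cells in the last row of each panel, for organoid cells (above) and Ki67-RFP+ crypt cells (below). Organoid Plaur and Plau concentrate in regenerative-like cluster 13 and Plat in cluster 11, and in crypt cells 60.1 to 71.4% of the UMIs of Plat, Plau, Plaur and Serpine2 are in regenerative-like cluster 1. All its cells are irradiated, and it holds 48% and 61.9% of the cells of irradiated replicates 1 and 2. Within these libraries it holds 62.8 to 87.6% and 66.7 to 79.4% of the UMIs of these genes.

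In sorted Ki67-RFP+ crypt cells, 3 Plaur UMIs were found in 1846 non-irradiated cells, or 0.116 CPM (0.024 to 0.34). The irradiated libraries held 21.7 CPM (19.3 to 24.3) and 34.8 CPM (31.6 to 38.3), that is 186 times (63.2 to 909) and 299 times (102 to 1456) as much. Serpine2, barely measured in organoids, was at 1.46 CPM (1.04 to 2.02) without irradiation and at 8.06 (6.65 to 9.73) and 7.37 (5.94 to 9.05) with it. Plat was at 1.02 (0.659 to 1.48), 4.77 (3.72 to 6.11) and 5.1 CPM (3.92 to 6.53). Plau gave 0 UMIs without irradiation, and 10 and 18 UMIs with it, or 0.728 and 1.46 CPM. That is 6.25 and 12.5 times the level of 3 UMIs in the non-irradiated library (0.116 CPM), and the exact 95% intervals of the ratios begin at 4.21 and 9.18. Serpinb1a was at 324 CPM (317 to 331) without irradiation and at 274 (265 to 283) and 351 (340.4 to 361) with it, so the irradiated libraries lay on both sides. With 1 library against 2 there is no test, and 10.4% of the 9266 genes with at least 10 CPM in any library were at least 2-fold higher in both irradiated libraries. Of the 5 genes only Plaur and Serpinb1a reach that level. Plaur does so only in the irradiated libraries, so its being counted is itself no support.

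After thinning to 2000 UMIs, 5.56% (4 to 7.5) and 6.72% (4.98 to 8.84) of irradiated cells held a Plaur UMI, against 0 of 1846 non-irradiated cells, and without thinning 26.6% and 29% against 0.163%. The 778 cells of regenerative-like crypt cluster 1, all irradiated, held Plaur at 39.4 CPM (36 to 43.1), Serpine2 at 13.2 (11.3 to 15.4), Plat at 7.41 (5.98 to 9.08) and Plau at 1.59 (0.973 to 2.46). These values pool both irradiated replicates, whose intervals overlap for Plaur, Plat and Plau but not for Serpine2. Serpine2 was at 18.2 CPM (14.8 to 22.2) in replicate 1, with 97 UMIs from 39 of 345 cells, and 9.49 (7.31 to 11.9) in replicate 2. Cluster 4, unnamed and also all irradiated, with a high median of 21394 UMIs per cell, held Plaur at 16 CPM (13.8 to 18.5). By replicate this was 12.8 CPM (10.4 to 15.6) in replicate 1 and 21.7 (17.5 to 26.5) in replicate 2, whose intervals do not overlap. Plaur was higher still, at 142 CPM (94.2 to 205), in cluster 11 of the crypt cells, 24 irradiated cells led by small RNA genes that held 3.84% of its UMIs and were too few for the ranking of clusters of at least 50 cells. No doublet caller was run. The large clusters were nearly all of 1 side, irradiated or not, so among clusters of 50 or more cells only goblet-like cluster 7 held cells of both sides in number. In it Plaur gave 0 UMIs in 57 non-irradiated cells (up to 6.06 CPM, median 9089 UMIs per cell), 6 UMIs in 38 cells of irradiated replicate 1 (9.48 CPM, 3.48 to 20.6, median 13457) and 4.49 in 21 cells of replicate 2 (12.2 CPM, 2.96 to 27.8, median 15339). The intervals overlap.

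Markers of leukocytes were higher in the irradiated crypt libraries, where 6 of 6 immune markers summed to 13.1 and 8.67 CPM against 4.64 without irradiation. Endothelial markers summed to 10.8 and 11.8 CPM against 6.3, nearly all Pecam1, and glial markers to 3.82 and 5.84 CPM against 1.35. An immune-like crypt cluster of 9 cells is too small to give a level, with 0 Plaur UMIs allowing up to 64.4 CPM and 1 Serpine2 UMI. The part of endothelial and glial cells in the results was not tested. Without all cells that had a UMI of any immune or myeloid marker, Plaur was at 0.125, 23.2 and 36.1 CPM and Serpine2 at 1.39, 8.14 and 7.26 CPM, against 0.116, 21.7 and 34.8 CPM and 1.46, 8.06 and 7.37 CPM in all cells.

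Of the 52 listed pathway genes, 20 in each comparison reached 10 CPM in any of its libraries. At least 2-fold higher were 8 at 24 h against 0 h in organoids, and 8 in both irradiated crypt libraries, where 2 were at least 2-fold lower. Over all genes at that level the shares were 5.41%, 10.4% and 5.24%. Serpinb5, Mmp7, Mmp14 and Timp3 in organoids, and Itgav, Serpinb5, Hgfac, Fn1, Mmp7 and Mmp15 in crypt cells, reached 10 CPM only where higher. Their being counted is itself no support. Anxa2 was at 318 and 842 CPM in organoids at 0 and 24 h, and at 209, 726 and 903 CPM in the non-irradiated and the irradiated crypt libraries. Serpinb5 was at 2.34 and 33.3 CPM and at 0.854, 26.7 and 38.9 CPM in the same libraries. Plgrkt was at 118, 30.9 and 36 CPM and Lrp1 at 44.1, 10.7 and 14.2 CPM in crypt cells, lower with irradiation, while at 24 h of TGFB1 in organoids Plgrkt was at 204 CPM against 180.4.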

How the data were processed

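For bulk RNA, 3 deposited tables of 6 libraries each give FPKM. The submitters' processing notes name TopHat2 2.1.0 and Cuffnorm 2.2.1, STAR 2.7.10a with STARsolo for single cells, and the builds mm9, GRCm39 and mm39, without saying which step used which. Single-cell values are expected counts of UMIs as deposited, not always whole. Fractions were kept in sums and rounded for Poisson intervals. Per the labels, PIPseq chemistry made the single-cell libraries. ATAC-seq libraries were not analysed here. Expression table columns not mapped to a sample numbered 0.

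A pseudocount of 1 was added to FPKM before taking log2, and limma 3.58.1 (trend and robust options, R 4.3.3, two-sided) was fitted over every gene averaging 1 FPKM or more in the libraries used. Calls have a Benjamini-Hochberg adjusted p under 0.05. The fit was tested on simulated data. Interactions used 12 libraries each. Cell filters were 500 UMIs, 250 genes and no more than 20% of UMIs from mitochondrial genes. Cells were clustered with Python 3.11.15 and leidenalg 0.10.2 (2000 variable genes, 30 components, 15 neighbours, resolution 0.6), and a cluster was named from at least 3 detected markers.

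The 5 genes, the lists and the tests were chosen with earlier results of these data known. Named pathway genes are called and at least 2-fold changed, up to 6 per direction by size in a comparison, with their values in other conditions added. One gene that this rule names is not reported here. Alternatives were another pseudocount, no filter, other scalings, 1 fit of 18 libraries, a replicate block, leaving out replicates, every barcode, whole-number entries, thinning to 1000 UMIs and resolution 1.0. The alternatives without cells carrying immune or myeloid markers, without organoid cluster 10 and without the cell richest in Plat, and the least of 50 cells for ranking clusters, were chosen after seeing the data.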

Additional observations from a re-analysis of the deposited data

Results flagged for a closer look

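The TGFB1 change at D7 differed between irradiated and non-irradiated organoids for 4 genes, by the limma interaction term: Plat 0.48, Plau -0.68, Plaur 0.74 and Serpinb1a 0.26. Between D11 and D7 in irradiated organoids it differed for 3 genes: Plau 0.69, Plaur -0.90 and Serpinb1a -2.17. The cause of these differences was not tested.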

How the results depend on the processing

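Of 288 values of the 4 tested genes under the alternatives, 281 kept their direction and their side of the threshold, 7 changed sides and 0 changed direction. With no filter on low values, Serpine2 became 1 gene called lower at D7 non-IR. With all 18 libraries in 1 fit, 1 gene rather than 3 had a larger TGFB1 change with irradiation. Leaving out 1 library at a time left 2 to 3 genes called lower in the interaction with day, since Plat passed in some. The labels do not say what a replicate number stands for, and same-numbered libraries deviated together weakly (r from -0.0856 to 0.213 over 9 pairs). With the replicate block Plat passed at D11 (log2 change 0.44, adjusted p = 0.00247) and in the interaction with day (-0.53, 0.00127), and no other call of the 4 genes changed. The log2 ratio of Serpinb1a CPM between irradiated and non-irradiated crypt cells turned to 0.0367 with whole-number entries, and was 0.114 without irradiated replicate 1 and -0.244 without replicate 2. At resolution 1.0 the highest cluster level was 108 CPM for Plaur in organoids, and 9.11 for Plat, 45.9 for Plaur and 701 for Serpinb1a in crypt cells. The cluster that led changed for crypt Plaur, from regenerative-like to an unnamed one, and for crypt Serpinb1a, from enterocyte-like to regenerative-like, and the cause was not tested. Unknown read depth limits the bulk values of Plau with vehicle and of Serpine2, and few UMIs limit Plau and Serpine2 in single cells.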
